A study of Arabidopsis thaliana with 9 samples.

Results

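The comparison described here sets dark-grown Arabidopsis thaliana seedlings that lack the brassinosteroid receptor against wild type. Its members were the arrays titled bri1-116 (3) and the arrays titled Col (3), chosen by title alone, which is 6 of the 9 arrays of the series. The bri1-116 arrays held seedlings homozygous for bri1-116, a null allele of the receptor kinase gene BRI1, in the Columbia-0 ecotype. The Col arrays held Columbia-0 wild type. All seedlings grew for 108 h in darkness on solid medium that contained 1% sucrose and were frozen without exposure to light. The mutant homozygotes were then taken one at a time out of a population that also carried the wild-type allele, so each bri1-116 array holds hand-picked individuals, and the labels describe no such step for Col. The remaining 3 arrays held AtGATA2ox, a transgenic line that overexpresses a GATA transcription factor. They entered the fit and 1 comparison below.

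Brassinosteroids are plant steroid hormones that bind BRI1 at the cell surface. Binding starts a phosphorylation cascade that activates the transcription factors BZR1 and BES1, which switch on genes of cell elongation and restrain the synthesis of the hormone. Dark-grown seedlings normally elongate the hypocotyl, keep the cotyledons closed and hold chloroplast development back, whereas plants without brassinosteroids or their receptor stay short in darkness and open their cotyledons. Whole seedlings were profiled, so fewer cells of a type and less RNA per cell cannot be told apart.

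Affymetrix arrays gave 1 intensity for each of 22746 probe sets, on a linear scale that the deposited files had already scaled to a trimmed mean of 500 on every array. Fold changes below are differences of log2(intensity + 1), bri1-116 minus Col, with their standard error. A probe set was called when its adjusted p in the limma fit over all 9 arrays was under 0.05. The annotation at hand tied 59.4% of the probe sets to a single gene and gave a symbol to 1580 of them. Gene lists and families below hold only probe sets that could be named from it. Members called measured are those named ones, so a count need not cover the whole family on the array. No probe set was named for BRI1 itself, so the genotype labels could not be checked on the targeted gene. Nothing in the labels says that the 3 arrays of a genotype came from separate cultures, so each p-value rests on array-to-array spread alone, which may be technical, and the number of arrays limits the precision.

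Median intensity was 119.6 to 132.6 on the bri1-116 arrays and 134.5 to 147.3 on the Col arrays. The actin 3′ to 5′ control ratio, higher where shorter cDNA reached the array, averaged 3.82 ± 1.02 in bri1-116 against 1.91 ± 0.114 in Col (SD, n = 3 each), and the ranges did not overlap (2.86 to 4.88 against 1.81 to 2.03). The ubiquitin ratio averaged 1.61 ± 0.147 against 1.08 ± 0.0184, again without overlap, and the GAPDH ratio averaged 1.32 ± 0.135 against 1.10 ± 0.157 with overlap. Signal for 25S ribosomal RNA varied within the mutant, at 8762.9, 3533.8 and 107.7 against 143 to 194.2 in Col. The actin and ubiquitin ratios move with the genotype, whereas the 25S signal sets bri1-116 replicate 3 apart from the other mutant arrays. Their part in the results below was not tested. Bacillus control probe sets, which have no plant target, reached group means of 39.3 in bri1-116 and 37.2 in Col, so intensities near or below about that level are background.

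Several defining markers of single organs and stages were low in both genotypes. SPCH, the first transcription factor of the stomatal lineage, read 6 to 15 in bri1-116 and 4.8 to 17.8 in Col. CLV3, the stem cell peptide of the shoot apex, read 3.5 to 9.2 in bri1-116 and 2.7 to 8.1 in Col. The root hair expansin gene EXPA7 read 35.4 to 65.2 in bri1-116 and 16.5 to 61.9 in Col. EXPA18, the other root hair expansin gene measured, read 26.8 to 66 in bri1-116 and 67.6 to 102.9 in Col, with the mutant arrays wholly below wild type (-0.97 ± 0.75). The late-embryogenesis gene M17 read 1.6 to 14.8 in bri1-116 and 2.8 to 81.5 in Col. None of these 5 was called. STOMAGEN, from the stomatal list, was bright in both genotypes and is described below.

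Of all probe sets tested, 3431 were called, which is 15.1%. Of these, 1612 were higher in bri1-116 (7.09% of those tested) and 1819 were lower (8.0%). Counts within the gene lists below are to be read beside these shares. Changes of at least 2-fold numbered 814 upward (3.58%) and 1181 downward (5.19%), and the falls outnumbered the rises among the largest changes, with 134 probe sets lower by at least 8-fold against 37 higher. The 3 bri1-116 arrays lay wholly above the 3 Col arrays for 18.2% of the probe sets and wholly below them for 19.3%, together 37.6%. The split depended on the scaling. Rises made up 47.0% of the calls as deposited, 59.9% after centring each array on its median, which shifted the median of all probe sets by 0.14, and 11.5% after scaling to the hybridisation controls, which shifted it by -0.47. Directions below are therefore relative to the deposited scaling, under which the median log2 difference of all probe sets was -0.02.

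**Figure D1:**
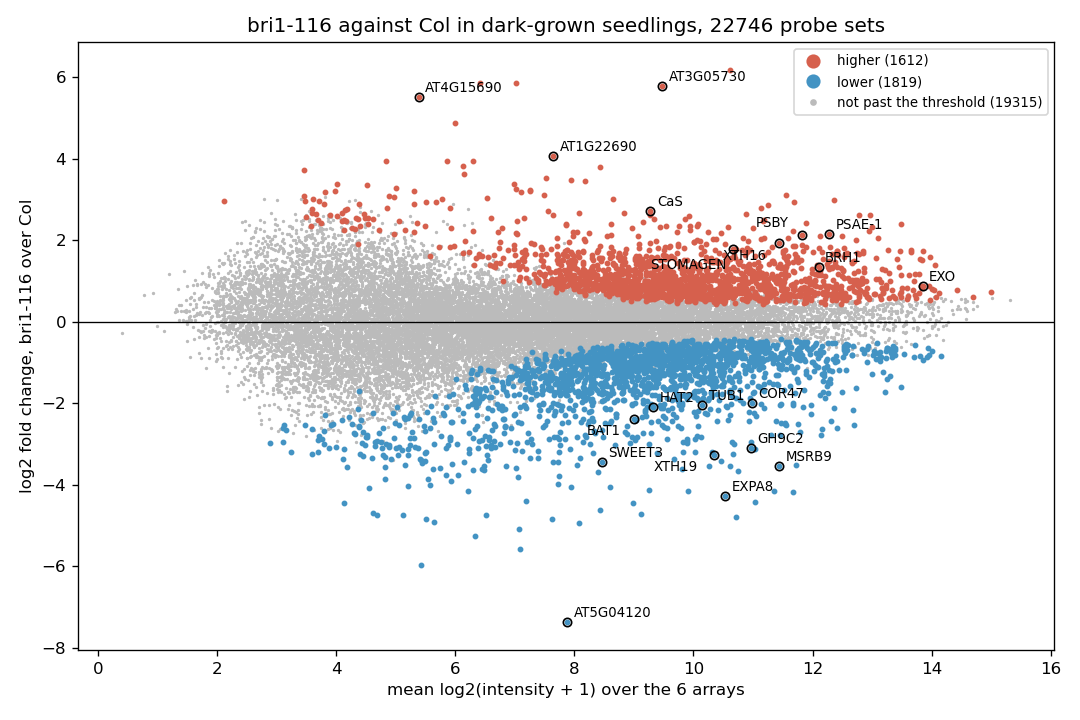
Each point is a probe set, placed by its mean log2(intensity + 1) over the 6 arrays (horizontal axis) and its log2 fold change, bri1-116 over Col (vertical axis); colour marks the 1612 called higher and the 1819 called lower, and circles mark genes described in the text. The growth genes EXPA8, XTH19 and GH9C2 lie far below 0, and CaS, PSBY and PSAE-1 lie above it.

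The sharpest fall among named wall genes was in EXPA8, which encodes an expansin, a protein that loosens bonds between wall polymers so that cells can extend. EXPA8 intensity was 264.4, 385.8 and 366.3 on the bri1-116 arrays, against 5741.5, 6777 and 7026.4 on the Col arrays. Every mutant array lay more than an order of magnitude below every wild-type array. The log2 fold change was -4.27 ± 0.24 (limma adjusted p = 3.3e-07). The expansin-like gene EXLA2 read 178.3, 214.3 and 175.9 in bri1-116 and 1753.4, 1405.2 and 1166.8 in Col, and fell by 2.91 ± 0.23 (adjusted p = 2.8e-06). The beta-expansin genes EXPB1 and EXPB3 fell by 2.00 ± 0.18 and 1.56 ± 0.27. EXPA4 fell by 1.48 ± 0.14, with 1388.6 to 1535.8 in bri1-116 and 3885.4 to 4284.1 in Col.

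Of the 19 measured expansin probe sets, 6 fell, none rose and 13 were not called, with a median log2 difference of -0.47 against -0.02 for all probe sets. The arrays of the mutant lay wholly below those of wild type for 11 of the 19 and wholly above for none. The sixth call, EXLA1 (-0.99 ± 0.27, adjusted p = 0.025), held only when Col replicate 3 was the array left out, with adjusted p up to 0.11 without any 1 of the other 5 arrays, and it also lost its call after median centring. EXPA9 and EXLA3, at -0.47 and -2.68, were not called (adjusted p = 0.065 and 0.083).

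Xyloglucan endotransglucosylase/hydrolases, enzymes that cut and rejoin the xyloglucan chains tying cellulose together, changed in both directions. XTH19 read 486.6, 470.7 and 320.9 in bri1-116, against 4409.7, 3888.8 and 3832.6 in Col, and fell by 3.27 ± 0.20 (limma adjusted p = 5e-07). XTH18, its neighbour in the same family, fell by 1.39 ± 0.17. XTH16 moved the other way: it read 5849, 5187 and 5189.8 in bri1-116 and 1661.3, 1306.2 and 1318 in Col, a rise of 1.93 ± 0.17 (adjusted p = 6.2e-06). XTH32 rose by 1.33 ± 0.19, with all mutant arrays at 1324.3 or more and all wild-type arrays at 629.3 or less.

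Among the 10 measured members of that family, 4 fell and 2 rose, and the median was -0.46. XTH20 (-1.85 ± 0.45, adjusted p = 0.012) lost its call without Col replicate 2 or 3, with adjusted p up to 0.066. EXGT-A3 (-0.49 ± 0.15, adjusted p = 0.041) lost it whichever array was left out and after median centring. Opposite changes within a family of related enzymes are seen here in XTH19 and XTH16, whose arrays were separated completely in both cases.

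PME61, a pectin methylesterase gene, read 96.1, 64.8 and 74.5 in bri1-116 and 933.7, 780.9 and 989.5 in Col (-3.52 ± 0.28, limma adjusted p = 3.5e-06). ATPMEPCRD, named for the same enzyme class, averaged 3071 ± 79.7 in bri1-116 and 13840 ± 643 in Col (SD, n = 3 each) and fell by 2.17 ± 0.17. They were the 2 called members of 7 in the pectin list, whose median was -0.34. GH9C2, an endoglucanase gene of glycosyl hydrolase family 9, read 698.3, 822.2 and 553.8 in bri1-116 and 6165.5, 5499.9 and 5876.9 in Col. Its log2 fold change was -3.10 ± 0.17 (adjusted p = 3.3e-07), and the lowest wild-type array stood far above the highest mutant array. GH9B13 was the second of 15 family members to fall (-0.95 ± 0.22), and it lost its call without Col replicate 3 or bri1-116 replicate 1 (adjusted p up to 0.065).

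CSLC04, which makes the glucan backbone of xyloglucan, read 733.2, 857 and 739.2 in bri1-116 and 3180, 2364.6 and 2442.2 in Col, and fell by 1.77 ± 0.16 (limma adjusted p = 7.3e-06). CSLC5 fell by 1.06 ± 0.16. The other 6 measured genes of the cellulose synthase family, none of them a cellulose synthase proper, were not called. Trichome birefringence-like proteins belong to a family of which several members acetylate wall polysaccharides. Of 25 probe sets for it, 6 fell and 1 rose, with a median of -0.47. TBL38 fell by 2.26 ± 0.24, TBL41 by 2.08 ± 0.42, TBL37 by 1.89 ± 0.23 and TBL39 by 1.00 ± 0.15. TBL36 rose by 0.85 ± 0.21, a call lost without Col replicate 3 or bri1-116 replicate 1 or 2 (adjusted p up to 0.080) and after scaling to the hybridisation controls.

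**Figure D2:**
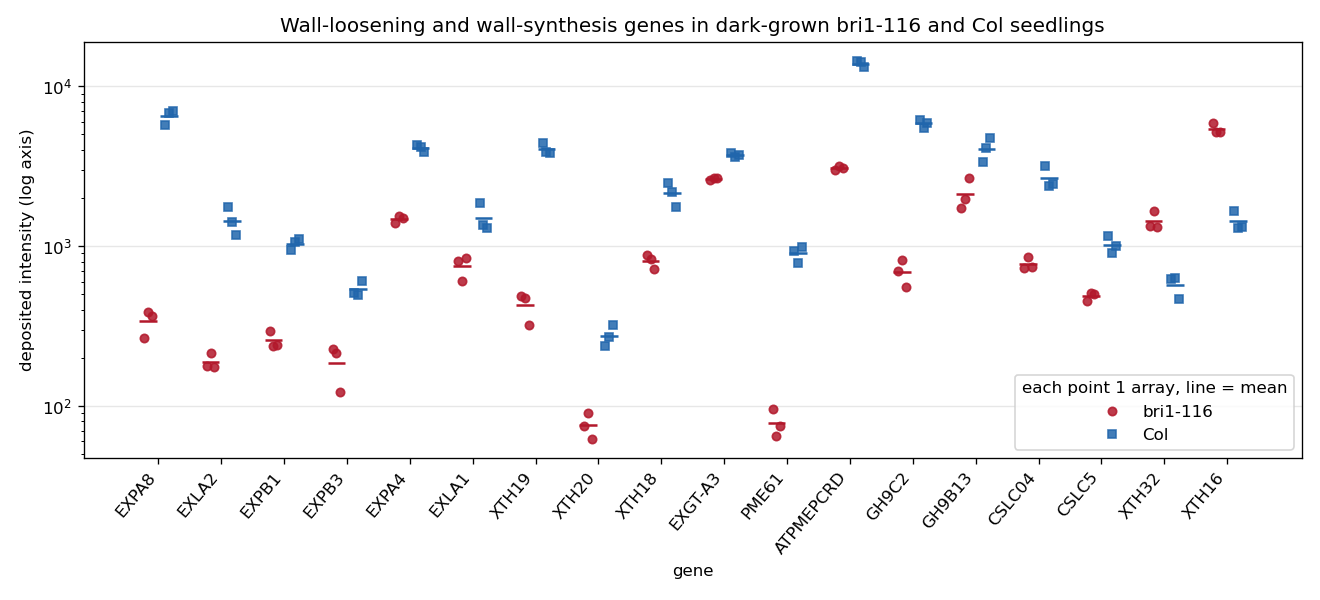
Deposited intensity (log axis) of 18 genes of wall loosening and wall synthesis on each of the 3 bri1-116 arrays (circles, left) and the 3 Col arrays (squares, right), with a line at each mean. The groups are apart for every gene shown; bri1-116 is lower for all except XTH32 and XTH16, where it is higher.

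Class III peroxidases, which use hydrogen peroxide to cross-link or loosen wall polymers, had 7 measured members, of which 4 fell and none rose (median -0.68). AT5G66390, annotated as PRX72, read 418.7, 512.1 and 554 in bri1-116 and 1832.4, 1893.2 and 1570.7 in Col, and fell by 1.84 ± 0.20 (limma adjusted p = 4e-05). AT2G41480, annotated as PRX25, fell by 1.43 ± 0.26. AT5G64120, annotated as PRX71, read 564.7 to 786.4 in bri1-116 and spread widely over the Col arrays, at 894.3, 6976.5 and 3761.5. Its fall of 2.16 ± 0.57 (adjusted p = 0.020) was lost without Col replicate 2 or 3 or bri1-116 replicate 1 or 3 (adjusted p up to 0.10). PRXR1 (-0.66 ± 0.19, adjusted p = 0.035) lost its call whichever array was left out.

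UGT72E3 and UGT72E2 attach glucose to monolignols, the building blocks of lignin. UGT72E3 read 10.1, 9.3 and 22 in bri1-116, which is background, and 120.3, 183.7 and 143.4 in Col, a fall of 3.42 ± 0.57 (limma adjusted p = 0.0010) whose size shrank to 2.48 with a pseudocount of 16. UGT72E2 fell by 1.34 ± 0.31, a call lost without Col replicate 2 or bri1-116 replicate 3 (adjusted p up to 0.063). GT72B1, of the same group, fell by 1.64 ± 0.31. The glycosyltransferase list had 8 falls and 2 rises among 51 named probe sets, with a median of -0.05. The falls numbered 3 without Col replicate 2, 4 without bri1-116 replicate 3, 5 without Col replicate 3 and 6 or 7 without any 1 of the other arrays. The rises were UGT88A1 (1.76 ± 0.16) and UGT74D1 (1.04 ± 0.22), and UGT74D1 was not called after scaling to the hybridisation controls.

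THE1, a receptor kinase that senses wall integrity, read 476.9, 576.5 and 470.5 in bri1-116 and 1306.9, 1229.2 and 935.3 in Col (-1.18 ± 0.21, limma adjusted p = 0.0015). It was the only call among 4 measured receptor kinases of the FERONIA group. Of 11 probe sets for RALF-like peptides, small secreted ligands of such kinases, 2 fell and none rose, although the median was 0.20. RALFL22 averaged 1603 ± 235 in bri1-116 and 4659 ± 273 in Col, and fell by 1.55 ± 0.18 (adjusted p = 7.2e-05). RALFL33 fell by 1.08 ± 0.16.

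The cytoskeleton genes that changed were mostly lower. TUB1, a beta-tubulin gene, read 585.3, 652.2 and 451.6 in bri1-116 and 2343.8, 2078 and 2559.6 in Col, and fell by 2.06 ± 0.18 (limma adjusted p = 6.7e-06). TUB5 fell by 1.16 ± 0.16 and the alpha-tubulin gene TUA1 by 0.92 ± 0.20. TUB9 and TUB7 fell by 0.72 ± 0.18 and 0.70 ± 0.19. Both calls were lost without Col replicate 1 or 2 or bri1-116 replicate 1 or 3 (adjusted p up to 0.070 for TUB9 and 0.13 for TUB7). TUA6 was not called (-0.20 ± 0.16). TUB6 was called higher by 0.42 ± 0.13 (adjusted p = 0.047), but the call was lost whichever array was left out, and the difference turned to -0.06 after scaling to the hybridisation controls. In all, 5 of the 7 tubulin probe sets fell, with a median of -0.72, and the count was 3 without Col replicate 1 or 2 or bri1-116 replicate 1 or 3.

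Of 39 probe sets for microtubule-associated proteins, 7 fell and 2 rose (median -0.23). The falls numbered 0 without Col replicate 2, 1 without Col replicate 1, 2 without bri1-116 replicate 1, and 4 without any 1 of the other 3 arrays. The rises numbered 1 in every such fit except the one without bri1-116 replicate 3, where they numbered 2. AT3G23090, annotated as WDL3, was at background in the mutant for 2 of 3 arrays, at 3.7, 14.4 and 49.8, against 214.8, 188.5 and 160.5 in Col (-3.60 ± 0.91, limma adjusted p = 0.015), and with a pseudocount of 16 the difference was -2.58. That call was lost without Col replicate 1 or 2 or bri1-116 replicate 1 (adjusted p up to 0.067). IQD22, a calmodulin-binding protein gene, rose by 1.60 ± 0.23. On the actin side, PLIM2b, which bundles actin filaments, read 316.3, 351.6 and 362 in bri1-116 and 1269.6, 1884 and 2666.3 in Col and fell by 2.43 ± 0.24 (adjusted p = 1.6e-05). The actin gene ACT11 fell by 1.75 ± 0.19. Of 24 probe sets on that list 3 fell and 1 rose, and the median was 0.28. Over all probe sets 8.0% fell and 7.09% rose, so the actin counts are not far from those shares. The other fall, NET2D (-2.55 ± 0.71), was called without bri1-116 replicate 2 but in no other fit that left out 1 array (adjusted p up to 0.10), and the rise, WLIM2b (0.60 ± 0.16), was called only without bri1-116 replicate 3 (adjusted p otherwise up to 0.12). With a pseudocount of 16 the difference of NET2D was -1.61.

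Few genes of the brassinosteroid pathway itself could be named. BAT1, an acyltransferase that inactivates brassinosteroids, read 198.2, 299 and 184.1 in bri1-116 and 1284, 1146.5 and 1072.1 in Col. The groups were well separated, and BAT1 fell by 2.39 ± 0.32 (limma adjusted p = 0.00020). HAT2, a homeodomain transcription factor induced by auxin, read 232, 303.3 and 415 in bri1-116 and 1508.7, 1468 and 1060.2 in Col (-2.11 ± 0.24, adjusted p = 5.8e-05). BRH1, a RING-finger gene known to be repressed by brassinosteroids, read 6003.2, 6076.9 and 9302.1 in bri1-116 and 2397.3, 2874.7 and 3052.9 in Col, and rose by 1.34 ± 0.21 (adjusted p = 0.00059). BRL1, a receptor related to BRI1, read 18.2 to 61.1 in bri1-116 and 90.2 to 118.3 in Col, and was not called (-1.56 ± 0.56, adjusted p = 0.082). The transcription factor genes BIM1 and CES were not called either, at -0.30 ± 0.26 and -0.10 ± 0.75.

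Of 8 growth genes known to be induced by brassinosteroids, 6 fell, 1 rose and 1 was not called, with a median of -1.95. The 6 were EXPA8, EXPA4, XTH19, XTH20, HAT2 and TUB1, and 5 fell without Col replicate 2 or 3. All of the 6 except HAT2 were already counted above with the expansins, the xyloglucan enzymes or the tubulins. They are therefore not further evidence, and the list was written with earlier results of these data known. The 1 rise was EXO, a gene known to promote cell expansion downstream of the hormone. EXO read 20664, 18625 and 20372 in bri1-116, against 10469, 10988 and 11299 in Col, so every mutant array was above every wild-type array. Its rise was 0.86 ± 0.16 (limma adjusted p = 0.0019), and it was not called after scaling to the hybridisation controls.

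Of the other growth hormones, the gibberellin list had 1 rise and 1 fall among 5 genes. The receptor gene GID1A rose by 0.72 ± 0.18 (limma adjusted p = 0.014) and the receptor gene GID1B fell by 0.80 ± 0.25 (adjusted p = 0.042). Both calls depended on single arrays. GID1A was lost without Col replicate 2 or bri1-116 replicate 1 or 2 (adjusted p up to 0.087) and after scaling to the hybridisation controls. GID1B was lost without Col replicate 2 or 3 or bri1-116 replicate 1 or 2 (adjusted p up to 0.18) and after median centring. The receptor gene GID1C and the signalling genes SLY1 and SPY were not called, at 0.18 ± 0.25, 0.06 ± 0.14 and 0.49 ± 0.22.

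Genes of the auxin response that were called differed in direction. WES1, a GH3 enzyme that conjugates auxin to amino acids, read 8807.5, 8990.4 and 9410.9 in bri1-116 and 3978.1, 3522.8 and 3781.4 in Col (1.27 ± 0.15, limma adjusted p = 8.5e-05). GH3.17, an enzyme of the same family, fell by 1.55 ± 0.34. The auxin response repressors IAA29 and IAA20 rose by 1.15 ± 0.27 and 0.80 ± 0.17, 2 of 7 measured Aux/IAA genes, with none lower. Neither of those rises was called after scaling to the hybridisation controls, and IAA29 also lost its call without Col replicate 2 (adjusted p = 0.051).

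Most nuclear-encoded photosystem and antenna genes that were measured rose. PSAE-1, a subunit of photosystem I, read 9148.9, 11452 and 10813 in bri1-116, against 2727.5, 2345.2 and 1991.4 in Col. Its mutant and wild-type arrays were far apart, and it rose by 2.16 ± 0.17 (limma adjusted p = 2.8e-06). PSBY, of photosystem II, read 7825.1, 6669.6 and 8313.4 in bri1-116 and 2075.2, 1394.1 and 1811.5 in Col, a rise of 2.12 ± 0.17. The antenna protein gene LHCB4.1 averaged 18145 ± 2617 in bri1-116 and 5424 ± 1195 in Col (SD, n = 3 each) and rose by 1.76 ± 0.20. PSAN rose by 1.64 ± 0.13, PSBW by 1.39 ± 0.17, PSB27 by 1.24 ± 0.15 and LHCB4.2 by 1.18 ± 0.18.

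Of the 8 nuclear-encoded photosystem and antenna probe sets, 7 rose and none fell, with a median of 1.51. The exception was LHCB4.3, at 0.10 (adjusted p = 0.84). The count was also 7 of 8 after median centring and after scaling to the hybridisation controls, and 6 of 8 with replicate 3 as the single bri1-116 array.

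Around the photosystems, 19 of 32 probe sets for thylakoid assembly factors, carriers and regulators rose and none fell (median 0.91). The arrays of the mutant lay wholly above those of wild type for 24 of the 32 and wholly below for 2, TAAC (-0.71 ± 0.34) and CRR22 (-1.49 ± 0.68), neither of them called. CaS, a thylakoid calcium-sensing protein gene, had the largest rise of the list: 1488.5, 1415.1 and 1910.7 in bri1-116 against 241.9, 177.7 and 320.8 in Col (2.72 ± 0.22, limma adjusted p = 4.3e-06). AT4G01150, annotated as CURT1A, which bends the thylakoid membrane at the edge of the grana, read 9241.2, 10459 and 9962.7 in bri1-116 and 3338.4, 2637.2 and 3009.1 in Col. It rose by 1.73 ± 0.15 (adjusted p = 6.6e-06). PIFI, a factor of the chloroplast NADH dehydrogenase-like route, rose by 1.67 ± 0.20, the lumenal cytochrome gene CYTC6A by 1.44 ± 0.17 and ATAB2, which aids translation of photosystem proteins, by 1.30 ± 0.15. The thylakoid ascorbate peroxidase gene TAPX rose by 1.61 ± 0.28. Of the 19 rises, 10 passed the threshold after scaling to the hybridisation controls.

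Enzymes of the tetrapyrrole pathway, which leads to chlorophyll and heme, showed the same direction in 9 of 14 probe sets, with none lower and a median of 1.00. Early in the pathway, GSA1, which makes 5-aminolevulinic acid, rose by 0.84 ± 0.17, and HEMB1, the next enzyme, read 4103.9, 4077.9 and 4981.3 in bri1-116 and 1965.6, 1573 and 1626.4 in Col (1.35 ± 0.15, limma adjusted p = 3.3e-05). The uroporphyrinogen decarboxylase genes HEME1 and HEME2 rose by 1.60 ± 0.21 and 1.01 ± 0.17. In the chlorophyll branch, CHLM, which methylates magnesium protoporphyrin, read 8165.5, 6867.6 and 5224.6 in bri1-116 and 2376.3, 1917.8 and 1789.9 in Col. It rose by 1.72 ± 0.17 (adjusted p = 2.1e-05).

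PORB, a protochlorophyllide reductase that waits for light to complete chlorophyllide, read 14201, 14366 and 16483 in bri1-116 and 7722.6, 5493.4 and 6678.6 in Col. It rose by 1.19 ± 0.18 (limma adjusted p = 0.00057). The magnesium chelatase gene CHLI2 was higher on every mutant array but was not called (1.32 ± 0.46, adjusted p = 0.075). The lowest value of the list was that of hemb2, whose mutant arrays lay wholly below wild type and which was not called (-1.49 ± 0.63, adjusted p = 0.15). HEMA2, an isoform of the first committed enzyme, was not called and had a negative difference (-0.36 ± 0.29), and hemf2 was near 0 (0.18 ± 0.67). After scaling to the hybridisation controls 4 of the 14 probe sets were called higher and 1 lower; GSA1 and HEME2 were among the calls lost.

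In carbon fixation and its redox control 5 of 9 probe sets rose and 1 fell. RCA, the activase of Rubisco, read 8519.6, 7683.6 and 10458 in bri1-116 and 3392.4, 2949.1 and 3306.3 in Col (1.46 ± 0.18, limma adjusted p = 0.00010). AT5G58330, annotated as the NADP-dependent malate dehydrogenase, rose by 1.49 ± 0.18 and SBPASE, the sedoheptulose bisphosphatase of the Calvin cycle, by 1.01 ± 0.19. Among plastid thioredoxins, ATHM2 and ty2 rose by 0.81 ± 0.17 and 1.32 ± 0.27 whereas TY1 fell by 1.00 ± 0.19, so members of one family again differed in sign. SBPASE and ATHM2 lost their calls after scaling to the hybridisation controls.

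The chloroplast's own genome was counted apart. Of 69 probe sets for plastid-encoded genes, 4 rose, none fell and the median was 0.17. The 4 were psbB (0.75 ± 0.14), psbM (0.78 ± 0.22), psbZ (0.69 ± 0.19) and psbT (0.60 ± 0.18), all photosystem II subunits. The share of 4 in 69 is near the 7.09% of all probe sets called higher. None of the 4 was called after scaling to the hybridisation controls, and all except psbB also lost their calls in at least 4 of the 6 fits that left out 1 array. The count rested on single arrays. Without bri1-116 replicate 3, whose 25S rRNA signal of 107.7 was far below the 8762.9 and 3533.8 of the other mutant arrays, 9 of the 69 were higher, none was lower and the median was 0.35. With replicate 3 as the single bri1-116 array 1 was higher, 6 were lower and the median was -0.29. Leaving out any 1 of the other 5 arrays gave 1 or 2 higher and none lower. The part of the rRNA signal in this was not tested. In mitochondria, 2 of 23 probe sets were called, both higher, a share again near the 7.09% of all probe sets. Both were for nad5, a subunit of respiratory complex I (1.15 ± 0.17 and 0.95 ± 0.27). The smaller of these was lost whichever array was left out.

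**Figure D3:**
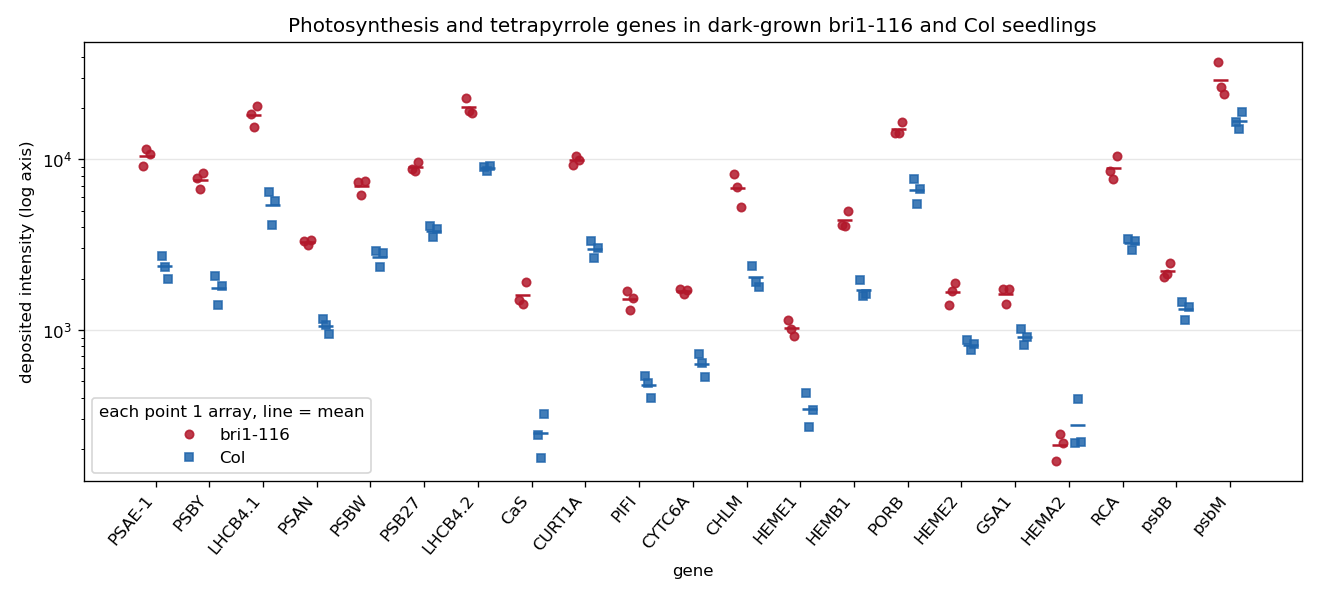
Deposited intensity (log axis) of 21 genes of photosystems, thylakoids, tetrapyrrole synthesis and carbon fixation on the 3 bri1-116 arrays (circles, left) and the 3 Col arrays (squares, right), with a line at each mean. The bri1-116 arrays are higher for every gene shown except HEMA2, where the groups overlap; psbB and psbM are plastid-encoded and the others nuclear.

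Regulators of the light response were mostly without a call, as were probe sets in general, 7.09% of which were called higher. In a share near that, 1 of 13 probe sets for light and clock regulators rose. It was FHL, which carries phytochrome A into the nucleus: 1036, 790.9 and 934.9 in bri1-116 and 396.8, 289.1 and 299.4 in Col (1.49 ± 0.24, limma adjusted p = 0.00078). HYH, a transcription factor of photomorphogenesis, was close to background in both groups and was not called (1.42 ± 0.99). STOMAGEN, a secreted peptide that promotes stomata, read 4049.2, 2365 and 2834.6 in bri1-116 and 1020.5, 759.3 and 873.2 in Col, and rose by 1.77 ± 0.24 (adjusted p = 0.00017). The other 3 stomatal genes measured, SPCH, MUTE and FMA, were not called, at -0.12 ± 0.78, 0.50 ± 0.96 and 1.40 ± 0.68.

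Sugar carriers of the SWEET family were lower where they were called. SWEET3, of a family that lets sugars cross membranes, read 127.6, 107.2 and 87.1 in bri1-116 and 1300.5, 1333.2 and 897.3 in Col (-3.44 ± 0.32, limma adjusted p = 1.1e-05). SWEET17, a fructose carrier of the vacuole, fell by 1.57 ± 0.27, and SWEET11, known for loading sucrose towards the phloem, fell by 0.90 ± 0.19. SWEET2 and SWEET16 fell by 1.34 ± 0.32 and 1.21 ± 0.31. SWEET2 lost its call without Col replicate 2 or bri1-116 replicate 2 (adjusted p up to 0.061) and SWEET16 without Col replicate 1 or 2 or bri1-116 replicate 1 or 2 (adjusted p up to 0.068). Of the 16 SWEET probe sets 5 fell and none rose (median -0.41), against 8.0% of all probe sets called lower. The falls numbered 3 without replicate 2 of either genotype.

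Starch and sucrose enzymes gave 3 rises and 1 fall in 17 probe sets. DPE1, which rearranges the glucans released from starch in plastids, read 944.4, 960.8 and 968.1 in bri1-116 and 359.8, 307.8 and 330 in Col (1.53 ± 0.34, limma adjusted p = 0.0075). PWD, which phosphorylates starch ahead of its breakdown, rose by 1.01 ± 0.20 on 1 probe set and was not called on another (0.20, adjusted p = 0.89). The first of these was not called after scaling to the hybridisation controls. The third rise, F2KP (0.59 ± 0.18), lost its call whichever array was left out (adjusted p up to 0.17). The fall, the invertase gene cwINV6 (-1.36 ± 0.39), was called only in the fit without Col replicate 1 (adjusted p otherwise up to 0.19). All 5 measured genes of the catabolic response to darkness and starvation were without a call in the limma fit, between -0.15 and 0.18, and 0 had an unadjusted p under 0.05. Over all 22746 probe sets, 5888 had one in that fit, so 0 among only 5 genes is little to go on.

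Membrane traffic held several falls. PRA1.B6, of a family of small proteins of the secretory pathway, read 651.2, 653.9 and 579.6 in bri1-116 and 2460.4, 2124.6 and 1813.8 in Col (-1.75 ± 0.16, limma adjusted p = 1.1e-05). PRA8 and PRA1.B4 fell by 0.98 ± 0.19 and 0.79 ± 0.13, which made 3 falls among 11 PRA1 probe sets and no rise. Of 14 ESCRT probe sets, which sort membrane proteins to the vacuole, 4 fell and none rose. SNF7.2, at -1.17 ± 0.25, was the 1 of these 4 called whichever array was left out. For SNF7.1, VPS60.1 and VPS2.1 the largest adjusted p was 0.14, 0.12 and 0.14 in such fits: SNF7.1 was lost without Col replicate 2 or 3 or bri1-116 replicate 1, VPS60.1 without replicate 1 or 2 of either genotype, and VPS2.1 without Col replicate 1 or 2 or bri1-116 replicate 1 or 3. Tetraspanins, scaffold proteins of the plasma membrane, had 4 falls and 1 rise in 15, with TET8 at -1.18 ± 0.20 and TET10 at 1.16 ± 0.24. TET3 (-0.50 ± 0.14) lost its call whichever array was left out (adjusted p up to 0.12) and TET5 (-0.82 ± 0.23) without replicate 2 of either genotype, Col replicate 1 or bri1-116 replicate 3 (adjusted p up to 0.12), which left 2 falls in those 4 fits. TET10 was not called after scaling to the hybridisation controls, nor were SNF7.1, VPS60.1 and VPS2.1 after median centring.

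Secreted hydrolases were mixed. Of 29 serine carboxypeptidase-like probe sets, 5 fell and 2 rose, the largest change being scpl40 with 90.6, 138.8 and 103.7 in bri1-116 and 824.9, 718.4 and 743.3 in Col (-2.79 ± 0.27, limma adjusted p = 1.7e-05). Of the rises, scpl35 (1.51 ± 0.42) was called only without Col replicate 1 (adjusted p otherwise up to 0.11), and scpl26 (0.78 ± 0.18) was lost without bri1-116 replicate 3. No rise was called without that array or after scaling to the hybridisation controls, and 1 was called without any other array except Col replicate 1. The falls numbered 3 without Col replicate 1 or 2, and 4 or 5 otherwise. Of 9 subtilases, secreted proteases, 2 fell: SBT4.12 by 1.87 ± 0.33 and SBTI1.1 by 1.75 ± 0.33. Of 22 beta-glucosidases 3 rose and 2 fell. Over all probe sets 7.09% rose and 8.0% fell. The 2 beta-glucosidase falls in 22 and the 2 carboxypeptidase rises in 29 are near those shares. BGLU44 rose by 1.52 ± 0.25 and BGLU16 fell by 1.25 ± 0.21. The other 3 calls were each lost in 5 of the 6 fits that left out 1 array: BGLU32 (3.02 ± 0.86) in all except that without bri1-116 replicate 3, BGLU33 (1.82 ± 0.51) in all except that without Col replicate 1, and BGLU15 (-0.81 ± 0.24) in all except that without bri1-116 replicate 2. Without Col replicate 2 or 3 or bri1-116 replicate 1, 1 rise and 1 fall were called. BGLU32 read 2.5 to 4 on the Col arrays, and with a pseudocount of 16 its difference was 1.39.

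Several redox and stress genes fell, MSRB9 the most of those given here. MSRB9, a methionine sulfoxide reductase that repairs oxidised proteins, read 798.8, 676.8 and 972.1 in bri1-116 and 11899, 10294 and 6903.6 in Col. Even the lowest wild-type array was several times the highest mutant one, and MSRB9 fell by 3.55 ± 0.23 (limma adjusted p = 7.6e-07). It was the 1 call among 5 such enzymes. GSTU26, a glutathione S-transferase gene, fell by 2.55 ± 0.18, the 1 call among 12, with 3 falls called without Col replicate 1 and 1 rise called beside it without bri1-116 replicate 3. COR47, a dehydrin gene of cold and drought responses, read 878.8, 1062.3 and 1122 in bri1-116 and 4368.9, 4316.8 and 3465.6 in Col (-1.99 ± 0.16, adjusted p = 3.6e-06), whereas DI21, also named for drought, rose by 1.23 ± 0.21. CML23, a calmodulin-like calcium sensor gene, fell by 2.02 ± 0.30, and PUB19, a ubiquitin ligase gene of drought responses, by 2.17 ± 0.26. Of 17 probe sets on the cold and drought list 2 fell and 1 rose. Of 9 calmodulin-like probe sets 3 fell and none rose, with 1 fall without Col replicate 3 or bri1-116 replicate 2. There was also 1 fall after quantile normalisation, after median centring and with a pseudocount of 16. CML42 (-0.73) lost its call without replicate 2 or 3 of either genotype. AT1G76640 (-1.70, or -1.01 with a pseudocount of 16) lost its call without Col replicate 3 or bri1-116 replicate 1 or 2. Of 9 plant U-box ligases 1 fell. Over all probe sets 8.0% fell and 7.09% rose, so 1 call among 12 or 9 is near those shares.

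Among transcription factors, WRKY22 rose by 1.35 ± 0.19, BZIP61 fell by 1.34 ± 0.22 and bZIP44 fell by 0.96 ± 0.15. Of 22 bZIP probe sets 1 rose and 3 fell, of 7 WRKY probe sets 1 rose and 1 fell, and of 44 AGAMOUS-like MADS-box probe sets 2 rose and none fell. Beside these counts, 7.09% of all probe sets rose and 8.0% fell. Only 7 of the 44 MADS-box probe sets were outside the dimmest 40% of probe sets, so few of them could readily be called. The WRKY fall, WRKY47 (-1.04 ± 0.30), was called only without Col replicate 1 or bri1-116 replicate 2. The bZIP fall AT2G12900 (-2.64 ± 0.80, or -1.20 with a pseudocount of 16) was lost whichever array was left out, and the MADS-box rise AGL26 (0.66 ± 0.16) without Col replicate 3 or bri1-116 replicate 1 or 2. Of 24 cytochrome P450 probe sets, 0 were called in the limma fit and 0 had an unadjusted p under 0.05, while 2 had mutant arrays wholly above and 2 wholly below wild type. Over all 22746 probe sets, 5888 had an unadjusted p under 0.05 in that fit. Only 7 of the 24 were outside the dimmest 40% of probe sets, so the missing calls say little about the rest.

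**Figure D4:**
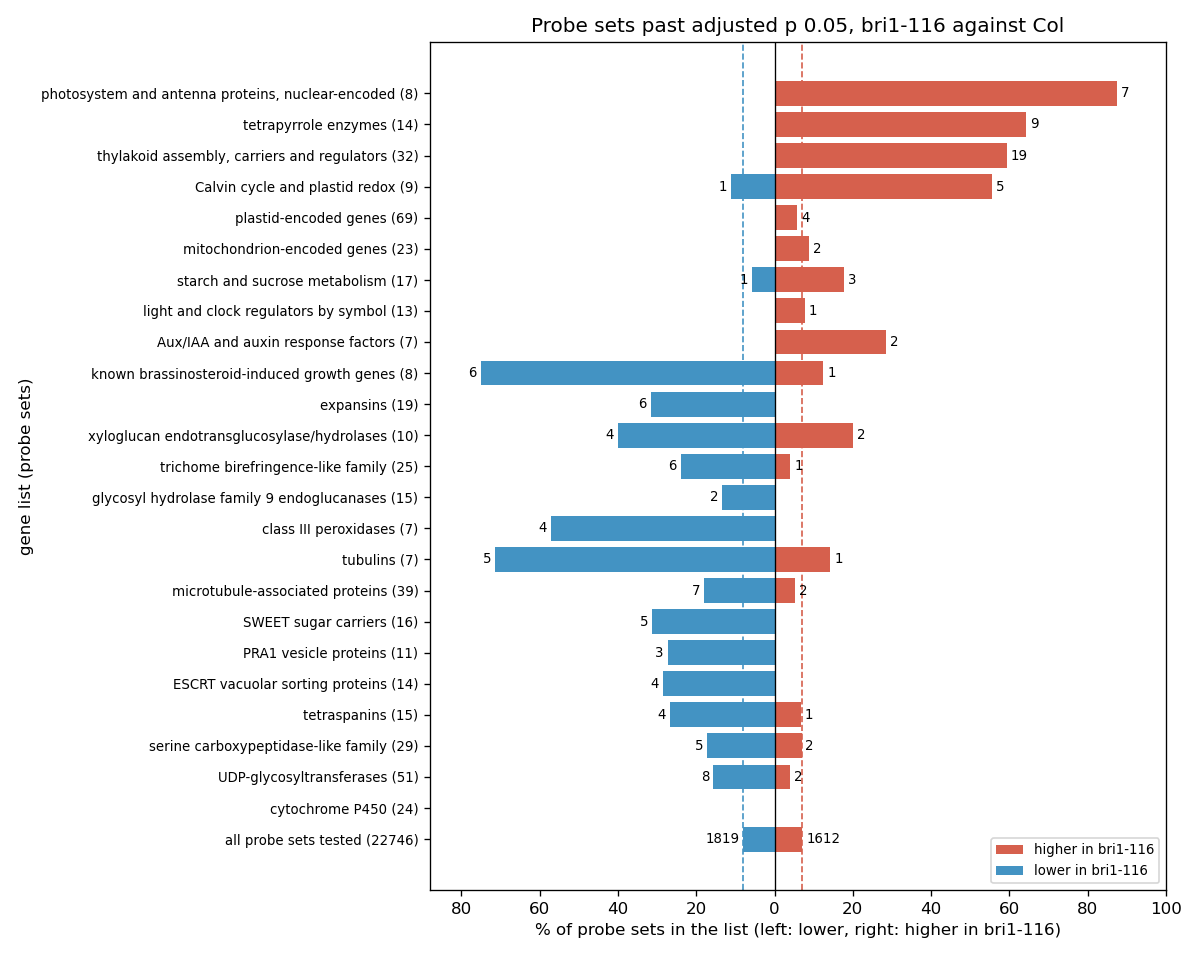
Share of the probe sets in each gene list shown that were called lower (left bars) or higher (right bars) in bri1-116 than in Col. The lists shown (rows, with the number of named probe sets) were chosen from 67. Numbers at the bars are counts and dashed lines mark the shares over all probe sets, 8.0% lower and 7.09% higher. Photosynthesis and tetrapyrrole lists extend to the right. Growth, wall, tubulin and microtubule lists extend mostly to the left, and the plastid-encoded list stays near the dashed line. Among lists not shown, the actin list had 3 lower and 1 higher of 24, and the beta-glucosidase list 2 lower and 3 higher of 22.

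The largest single rise among the probe sets eligible to be named was AT3G05730, which the annotation used here leaves without a symbol. It read 5542.2, 4728.3 and 5648.6 in bri1-116 and 154.8, 117.2 and 46.7 in Col (5.79 ± 0.47, limma adjusted p = 3.8e-06). AT1G22690 read 783.8, 685 and 1000.1 in bri1-116 and 39.4, 53.4 and 51.6 in Col, and rose by 4.06 ± 0.29. AT5G22580 and AT5G57785 were among the brighter of the large rises: AT5G22580 averaged 14775 ± 734 in bri1-116 and 1857 ± 67.0 in Col, and AT5G57785 averaged 9100 ± 489 against 1199 ± 70.7. AT5G52050, annotated as the carrier DTX50, rose by 3.63 ± 0.73, with Col arrays between 4.5 and 74.5, and by 2.73 with a pseudocount of 16.

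A run of neighbouring genes on chromosome 4 rose together. AT4G15690 read 296.8, 289 and 261.2 in bri1-116 and 12.7, 2.2 and 4.4 in Col, which is background (5.52 ± 0.53, limma adjusted p = 1.4e-05). AT4G15680 read 371.9, 265.8 and 295.8 in bri1-116 and 23.6, 8.3 and 34.3 in Col (3.95 ± 0.50). AT4G15660 and AT4G15700 rose by 3.04 ± 0.39 and 3.22 ± 0.36, with Col arrays at 29.5 to 34.2 and 31.9 to 88.8. Wild type was thus at or near background, and the sizes depend on the pseudocount: with 16 in place of 1 they were 3.76 for AT4G15690, 3.15 for AT4G15680, 2.57 for AT4G15660 and 2.86 for AT4G15700. The genes just outside, AT4G15650 and AT4G15710, were not called (0.30 ± 1.04 and 1.76 ± 0.76) and AT4G15670, inside the run, had no named probe set. Probe sets of near-identical neighbours can bind each other's transcripts, so the 4 values may not be independent.

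The largest fall was AT5G04120, without a symbol here: 73.4, 4.2 and 14.6 in bri1-116 and 1463, 3986.1 and 4805 in Col (-7.38 ± 0.73, limma adjusted p = 1.7e-05). Most mutant values were background, and with a pseudocount of 16 the difference was -6.33. AT1G72290 and AT4G17470 followed at -5.98 ± 0.90 and -5.57 ± 0.67, with mutant arrays again mostly at background, and with a pseudocount of 16 they stood at -4.10 and -4.68. Falls between bright values were seen in AT4G11190, at 995.3, 1011.7 and 975.3 in bri1-116 and 10873, 11623 and 11748 in Col (-3.52 ± 0.23). AT1G75900 read 283.5, 198.3 and 283.1 in bri1-116 and 3225.1, 2407.5 and 2321.9 in Col (-3.38 ± 0.20, adjusted p = 4.4e-07).

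A further 3 genes outside every list were chosen after their values were seen. WAG2, a kinase gene of the PINOID group that acts on auxin transport, read 291.2, 374 and 364.7 in bri1-116 and 2014.4, 2129.1 and 4202 in Col (-2.94 ± 0.28, limma adjusted p = 1.4e-05). UPB1, a transcription factor gene that controls peroxidases in the root, fell by 2.35 ± 0.36. ULT1, a chromatin-linked regulator of meristems, read 765.1, 809.9 and 748 in bri1-116 and 216.8, 191.4 and 140.4 in Col, and was 4.28-fold higher in bri1-116 (adjusted p = 1.2e-05).

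Set directly against AtGATA2ox, bri1-116 differed for 26.8% of the probe sets. The bri1-116 arrays are the same as in the comparison with Col. Hybridisation controls averaged 11.2 ± 0.226 (log2) in AtGATA2ox and 10.6 ± 0.174 in bri1-116 (SD, n = 3 each). Median intensity averaged 110.7 ± 10.7 in AtGATA2ox and 127.4 ± 6.86 in bri1-116. Bacillus controls reached group means of 61.8 in AtGATA2ox and 39.3 in bri1-116. The share and the differences given here are under the deposited scaling, and their dependence on it was not tested. STOMAGEN was higher in bri1-116 than in AtGATA2ox by 2.36 ± 0.24 (limma adjusted p = 1.1e-05), FHL by 2.73 ± 0.24 and DPE1 by 3.62 ± 0.34. MSRB9 was lower in bri1-116, with a difference of -4.81 ± 0.23, and so were SWEET2 (-4.09 ± 0.32) and EXPA8 (-2.19 ± 0.24). COR47, lower in bri1-116 than in Col, was higher in bri1-116 than in AtGATA2ox by 1.60 ± 0.16. PSAE-1, PSBY and LHCB4.1 were not called between bri1-116 and AtGATA2ox, with differences of -0.12 ± 0.17, -0.31 ± 0.17 and -0.10 ± 0.20. PME61 and SWEET3 were not called either, at -0.34 ± 0.28 and -0.01 ± 0.32, whereas XTH19 was higher in bri1-116 by 0.95 ± 0.20 (adjusted p = 0.0027).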

How the data were processed

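Total RNA of dark-grown seedlings was hybridised to Affymetrix arrays, 3 for each of bri1-116, Col and AtGATA2ox, per the labels' protocols. The deposited intensity values are linear, and the mean of each array without its lowest and highest 2% of values is 500. The submitters' processing notes name MAS5 and GCRMA without saying which made these values; the genome build is not given in the sources used here. From the deposited intensities, log2(value + 1) was computed for 22746 probe sets, leaving out 64 array controls, and fitted with limma 3.58.1 in R 4.3.3 (lmFit, eBayes with trend) to the 9 arrays together (6 residual degrees of freedom), with Benjamini-Hochberg adjustment over all probe sets at 0.05. The fit was tested on simulated data.

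Genes were named only where the platform annotation gave 1 gene, with symbols from RefSeq (13436 of 13513 probe sets matched). Named were the 30 largest rises and 30 largest falls among called, non-overlapping probe sets at or above the median intensity of 124.5 in a group, up to 6 called members per list by adjusted p, and the members of the brassinosteroid, light, gibberellin and chlorophyll lists. The comparison, lists and alternatives were chosen with earlier results of these data known, and some lists were added or tightened after the annotation was read. Replicate numbers did not pair arrays (correlations of same-numbered arrays 0.0029, 0.0097 and 0.018). Promoter and protein sequences were not used here.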

Additional observations from a re-analysis of the deposited data

How the results depend on the processing

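With the deposited scaling, the limma fit to all 9 arrays called 1612 probe sets higher and 1819 lower in bri1-116. Scaling to the hybridisation controls gave 479 higher and 3691 lower, and under it the named gene TUB6 turned to -0.056. Those controls averaged 10.6 ± 0.174 (log2) in bri1-116 and 10.1 ± 0.0896 in Col, which sets the shift by construction. eBayes without a trend gave 976 and 1128. The 6 arrays alone gave 2406 and 2776. With replicate 3 as the one bri1-116 array, assumed to vary like the other groups, the counts were 571 and 845. Leaving out each array in turn gave 1055 to 1277 higher and 1097 to 1458 lower, lowest in both directions without Col replicate 2. Quantile normalisation, median centring, a pseudocount of 16 and leaving out the dimmest 40% gave counts within 1.5 times of these, and so did the replicate block (1584 higher, 1855 lower), whose numbers do not pair the arrays. Non-overlapping probe sets numbered 8542 as deposited and 8650 to 9583 under the other 3 scalings. Of 220 named calls, 162 were past the threshold whichever 1 array was left out, and 117 under every alternative run that held their probe set. The run without the dimmest 40% held 201 of the 220. Without a trend 58 were lost, under the hybridisation controls 35, under median centring 18 and under the block 6. The cause of these losses was not tested. Values near the Bacillus controls limit the fold changes of dim genes. The planned search of promoter motifs was not run.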
